A study of Mus musculus with 12 samples.

Results

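The 46 genes described here make up a programme of brain endothelial cells, the cells that line the blood vessels and form the blood-brain barrier. They were taken from a written list of endothelial receptors, junction proteins, surface and secreted proteins, efflux transporters, caveolar proteins, transcription factors and Wnt targets, with no threshold on their values. The list was chosen with earlier results of these data known, so counts of genes called describe it and do not test it. All 46 were found among the 47643 genes of the count table, and 45 of them were among the 11103 genes tested. The bulk samples were cells sorted from the brains of 5 old male p16-3MR mice on a C57BL/6 background, aged 113, 115, 116, 116 and 116 weeks (mice 1 to 5). In these mice the p16 promoter drives a transgene for a fusion protein. Its parts are Renilla luciferase, a shortened viral thymidine kinase and a red fluorescent protein (RFP). RFP therefore reports activity of that promoter and not cell type. From each mouse, brain cells were released with cold protease and myelin was removed. Viable nucleated cells were then sorted without any cell type marker into an RFPneg and an RFPpos sample. The text of the study calls these RFP Low and RFP High. This gave 5 samples per population, paired here by sample number. The mice received no treatment named in the labels, and every sample came from an old transgenic animal. The single-cell samples of the series were not analysed here.

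Endothelial cells of brain capillaries are joined by continuous tight junctions, take up little by transcytosis and carry pumps that return many compounds to the blood. This state depends on Wnt ligands from neural cells, on transcription factors of the ETS, SOX, FOX and KLF families, and on receptors for vascular growth factors and angiopoietins. Several of the genes below, among them Bsg, Sptbn1, Tjp1, Ets1 and Ets2, are also made by many other cell types of the brain.

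The libraries held 177287, 196103, 415834, 248471 and 299680 counts on genes in RFPneg1 to RFPneg5 and 222560, 289713, 223052, 250482 and 242798 in RFPpos1 to RFPpos5. The medians were 248471 in RFPneg and 242798 in RFPpos. Levels are given as CPM, counts relative to the size of each library after scaling by the trimmed mean of M values (TMM). In the RFPpos samples a single count was worth 3.54 to 5.12 CPM, and 3 counts over the RFPpos samples, the floor used for a gene without counts there, corresponded to 2.52 CPM. All fold changes compare RFPpos with RFPneg within mice in the quasi-likelihood test of edgeR. Their standard errors (SE) were derived from that test, as the absolute log2 fold change over the square root of its F statistic. A gene was called when its Benjamini-Hochberg adjusted p over all genes tested was under 0.05 and its log2 fold change was beyond 1 in either direction.

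Of the 45 endothelial genes tested, 42 were called lower in RFPpos cells and 3 (Tjp1, Ets1 and Sox18) were not called. Over all genes tested, 824 of 11103 (7.42%) were called lower. None of the 45 was called higher by edgeR, by limma-voom or by DESeq2, and at an unadjusted p under 0.05 the count of higher genes was also 0. Of all genes tested, 376 (3.39%) were called higher. The median log2 fold change of the 45 genes was −4.15, against −0.10 for all genes tested, and it was also −4.15 with the genes that had no RFPpos count set at their bound. In 34 genes the RFPpos samples all lay below every RFPneg sample, which held for 683 (6.15%) of all genes tested. In 40 genes RFPpos was lower in each of the 5 mice, against 1518 (13.7%) of all genes tested. In bulk samples, fewer cells of a type and less RNA per cell cannot be told apart.

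**Figure D1:**
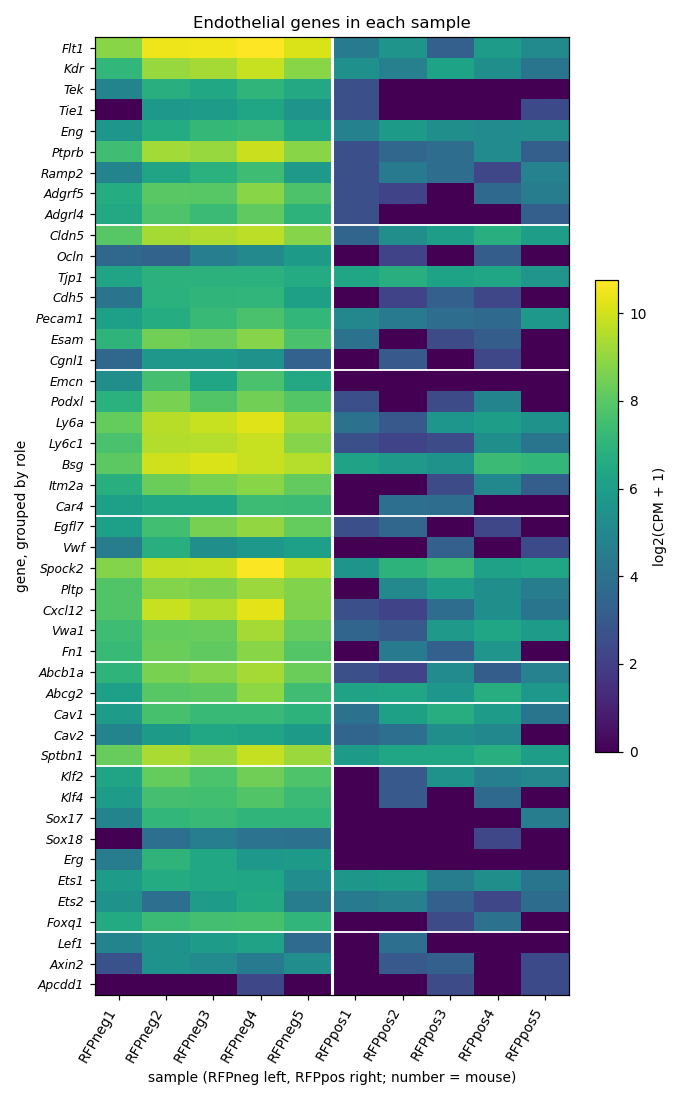
Heat map of log2(CPM + 1) of the 46 genes (rows, grouped by role) in the 10 samples (columns, RFPneg left of the white line and RFPpos right of it). Most rows are bright on the left and dark on the right. RFPneg1 is the darkest RFPneg column, and Tjp1, Ets1 and Abcg2 stay visible in every RFPpos sample.

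Summed over the 46 genes, the counts made up 0.513, 1.49, 1.44, 1.96 and 1.16% of all counts on genes in RFPneg1 to RFPneg5 (mean 1.31%, SD 0.533, n = 5). In RFPpos1 to RFPpos5 they made up 0.0571, 0.0956, 0.116, 0.144 and 0.0923% (mean 0.101%, SD 0.0319, n = 5). The lowest RFPneg sample was above the highest RFPpos sample, and the ratio within mice 1 to 5 was 8.99, 15.6, 12.4, 13.7 and 12.6.

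RFPneg1 stood apart from the other RFPneg samples. It was the lowest RFPneg sample for 40 of the 45 genes, at a median of 35.0% of the median of the other RFPneg samples, whereas RFPneg4 was the highest for 32. RFPpos1 was also the RFPpos sample with the lowest sum. Without mouse 1, 41 genes were called lower. With only RFPneg1 left out, a comparison chosen after seeing the data, 41 in place of 34 genes had no overlap between the populations, and Tjp1, Ets1, Ets2 and Lef1 still overlapped.

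Promoter sequences from RefSeq (GRCm38.p6) were matched by symbol for 30 of the 46 genes, with 44 start sites. The 150 bases upstream of the start are shown for 6 genes. Flt1 and Cldn5 had the most counts among the receptors and the junction genes, Emcn and Erg had no count in any RFPpos sample, and Eng and Cav1 showed small differences. Capitals mark the letters searched on both strands: AGGAAG (an ETS-like core), CCACACCC (KLF-like), ACAAAG (SOX-like) and CTTTGA (TCF/LEF-like). The SOX-like letters and the reverse complement of the TCF/LEF-like letters differ in their first base only, so the same stretch cannot match both.
Flt1, chr5:147726012-147726161, minus strand: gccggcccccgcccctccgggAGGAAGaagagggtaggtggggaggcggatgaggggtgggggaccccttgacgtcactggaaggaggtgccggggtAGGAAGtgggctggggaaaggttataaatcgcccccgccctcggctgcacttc
Eng, chr2:32646445-32646594, plus strand: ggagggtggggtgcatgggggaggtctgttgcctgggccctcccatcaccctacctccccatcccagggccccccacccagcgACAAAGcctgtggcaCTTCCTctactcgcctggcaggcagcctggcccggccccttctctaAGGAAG
Cldn5, chr16:18776697-18776846, plus strand: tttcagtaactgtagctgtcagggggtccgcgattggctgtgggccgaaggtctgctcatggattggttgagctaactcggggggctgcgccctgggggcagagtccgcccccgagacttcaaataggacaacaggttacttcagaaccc
Emcn, chr3:137340928-137341077, plus strand: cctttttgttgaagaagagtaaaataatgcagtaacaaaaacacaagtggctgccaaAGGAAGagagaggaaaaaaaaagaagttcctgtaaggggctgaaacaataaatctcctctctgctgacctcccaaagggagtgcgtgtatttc
Cav1, chr6:17306185-17306334, plus strand: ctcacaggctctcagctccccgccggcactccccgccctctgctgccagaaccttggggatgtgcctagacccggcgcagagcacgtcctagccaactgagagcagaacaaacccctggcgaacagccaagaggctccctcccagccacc
Erg, chr16:95586594-95586743, minus strand: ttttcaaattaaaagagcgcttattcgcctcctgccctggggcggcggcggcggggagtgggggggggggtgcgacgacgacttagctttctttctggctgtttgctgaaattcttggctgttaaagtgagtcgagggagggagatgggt
The ETS-like letters occurred in the 250 bases upstream of 17 of the 44 start sites (38.6%) and in 29.5% of all 32851 promoters. These 17 start sites belonged to 14 of the 30 genes, for which no share over all genes was computed. The SOX-like letters occurred in 18.2% of the 44 and 16.5% of all, the TCF/LEF-like letters in 11.4% and 13.8%, and the KLF-like letters in 2.27% (Tie1 alone) and 3.2%. These matches describe letters in a window and not binding. Erg has 3 listed start sites, and its ETS-like letters lie upstream of a start other than the one shown.

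The counts carried Ensembl identifiers, which annotation on GRCm38 placed for Flt1 (ENSMUSG00000029648) at chr5:147561604-147726011 on the minus strand. All 9 receptors were called lower, with a median log2 fold change of −4.87. Flt1, a receptor for vascular endothelial growth factors (VEGF), was at 457, 1427, 1458, 1720 and 1140 CPM in RFPneg1 to RFPneg5 and at 20.5, 46.04, 8.85, 59.2 and 34.6 CPM in RFPpos1 to RFPpos5. The lowest RFPneg sample lay well above the highest RFPpos sample, and the log2 fold change was −5.18 (SE 0.26, adjusted p = 7.1e-55). Over the settings compared, the adjusted p of Flt1 ran from 7.5e-82 to 4.0e-10, so its size depends on the processing. Kdr, the main signalling receptor for VEGF-A, was at 138, 551, 636, 930 and 451 CPM in RFPneg and 41.0, 24.8, 75.3, 39.5 and 17.3 CPM in RFPpos. Its populations did not overlap either, and its log2 fold change was −3.74 (SE 0.28, adjusted p = 2.0e-31). Ptprb, the phosphatase that acts on the angiopoietin receptor Tek, had a log2 fold change of −5.23, and the adhesion receptor Adgrf5 had −4.87 (−5.60 without mouse 5). Ramp2, a subunit of the adrenomedullin receptor, had −2.55, with no overlap.

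Tek and 2 other receptors had 1 to 3 counts over the RFPpos samples, so their differences are given as ratios of counts per library size with exact 95% intervals, which cover counting error only. Tek had 124 counts in RFPneg and 1 in RFPpos, a 106-fold ratio (18.8 to 4236), and the only RFPpos count was in mouse 1. Its partner Tie1 had 71 and 2 counts, a 30.5-fold ratio (8.13 to 256). RFPneg1 had no count of Tie1 and RFPpos1 had 1, so the populations overlapped there and were apart in the other 4 mice. The adhesion receptor Adgrl4 had 238 and 3 counts, a 68.1-fold ratio (23.0 to 332), and its RFPpos counts were in mice 1 and 5. Fitted log2 fold changes moved from −4.41 to −5.36 for Tie1 without mouse 1 and from −5.84 to −6.95 for Adgrl4 without mouse 5, and without mouse 1 no RFPpos count of Tek remained. Each of the 3 was called lower (adjusted p = 2.5e-13, 5.3e-06 and 2.4e-23).

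Eng, the co-receptor endoglin for transforming growth factor beta and bone morphogenetic proteins, differed least among the receptors. It was at 49.5, 95.8, 144, 160 and 84.6 CPM in RFPneg and at 25.6, 56.7, 39.8, 35.5 and 38.9 CPM in RFPpos. RFPpos was lower in each mouse, but RFPpos2 lay above RFPneg1. The log2 fold change was −1.40 (SE 0.35, adjusted p = 0.0015), and mean RFPpos level was 36.9% of the RFPneg mean, against 2.73% for Flt1.

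**Figure D2:**
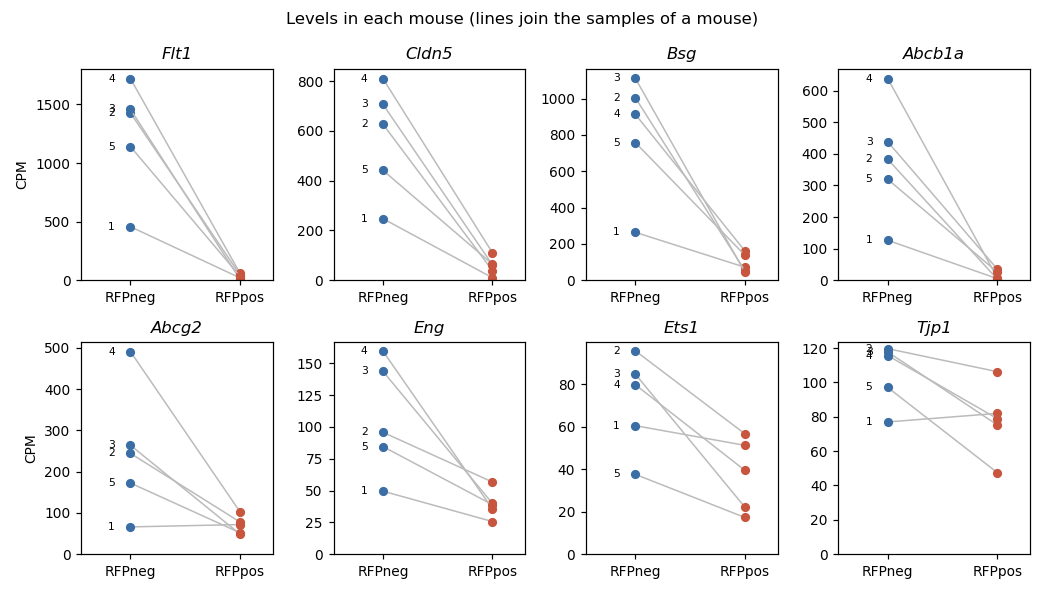
CPM of 8 of the genes in RFPneg (blue) and RFPpos (red) samples, with a line for each mouse and the mouse number beside its RFPneg point. Flt1, Cldn5, Bsg and Abcb1a fall in each mouse with no overlap, whereas Abcg2, Eng, Ets1 and Tjp1 overlap between the populations.

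Of the 7 junction genes 6 were called lower (median log2 fold change −3.35). Cldn5, the claudin that seals the tight junctions of brain endothelium, was at 248, 627, 707, 810 and 442 CPM in RFPneg and at 10.2, 39.0, 62.0, 111 and 64.8 CPM in RFPpos. The populations were apart in each mouse, with RFPpos1 lowest and RFPpos4 highest among the RFPpos samples, and the log2 fold change was −3.35 (SE 0.25, adjusted p = 3.8e-30). Esam, an adhesion molecule of endothelial contacts, was at 127, 354, 299, 443 and 204 CPM in RFPneg and at 15.4, 0, 4.43, 7.89 and 0 CPM in RFPpos. RFPpos1 held 3 of its 6 RFPpos counts, and the log2 fold change of −5.69 (SE 0.41) became −6.59 without mouse 1. Cdh5 (VE-cadherin of the adherens junction) and Pecam1 (an adhesion molecule shared with leukocytes and platelets) had log2 fold changes of −4.68 (SE 0.60) and −2.36 (SE 0.37), both without overlap.

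Occludin (Ocln) and the junction adaptor Cgnl1 each had 3 RFPpos counts. Their RFPneg totals of 40 and 49 counts gave ratios of 11.4 (3.64 to 57.8) and 14.02 (4.52 to 70.3). Both were called lower (adjusted p = 0.011 and 0.00083), and the call of Ocln was lost without mouse 3 (adjusted p = 0.066) or without mouse 5 (adjusted p = 0.14). The fitted log2 fold change of Cgnl1 went from −3.68 to −4.33 without mouse 2, and that of Ocln from −3.18 to −3.96 without mouse 4 and −2.55 without mouse 5. The scaffold gene Tjp1 (ZO-1), which many cell types express, was at 77.0, 120, 118, 116 and 97.1 CPM in RFPneg and at 82.0, 106, 75.3, 78.9 and 47.5 CPM in RFPpos. It was lower in 4 of 5 mice and higher in mouse 1, and its log2 fold change of −0.46 (SE 0.30, adjusted p = 0.40) was not called. Cldn5 and Tjp1, the claudin and its scaffold, thus stood at 10.1% and 74.0% of their RFPneg means in RFPpos cells.

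**Figure D3:**
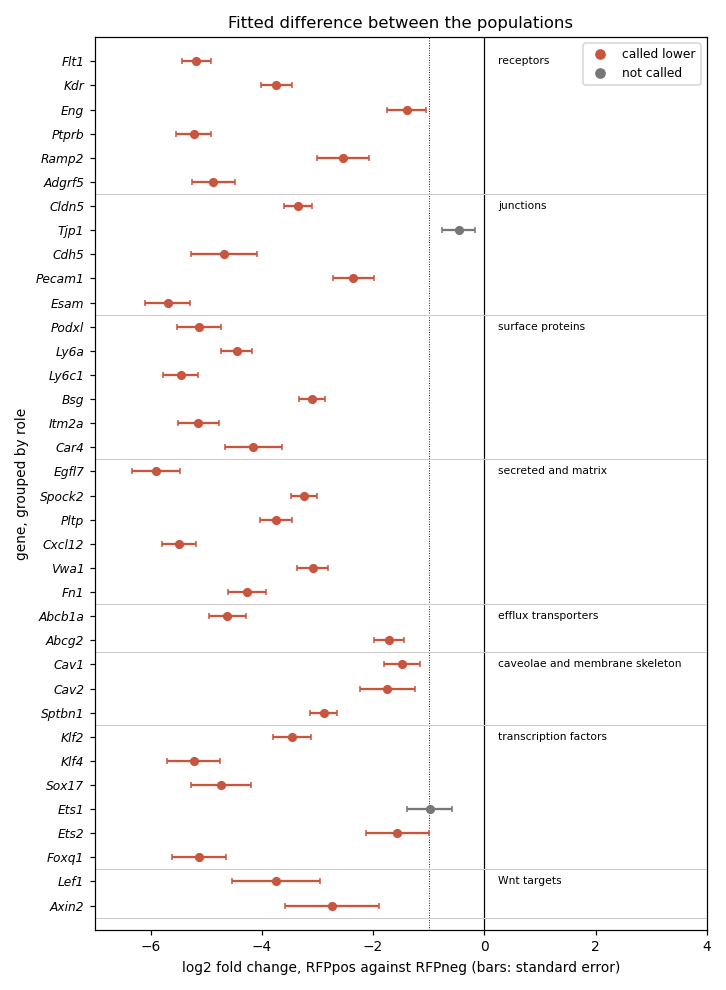
Log2 fold change of RFPpos against RFPneg with its standard error for the members with more than 3 counts in the RFPpos samples, grouped by role; the dotted line marks −1. Every point lies below 0, from Egfl7 at −5.90 to Tjp1 at −0.46, and the grey points (Tjp1 and Ets1) were not called.

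All 7 surface protein genes were called lower, without overlap in any of them (median log2 fold change −5.12). Bsg, the chaperone basigin that carries lactate transporters to the membrane, was at 264, 1005, 1112, 914 and 758 CPM in RFPneg and at 71.7, 53.1, 44.3, 162 and 138 CPM in RFPpos. Its highest RFPpos samples came from mice 4 and 5, and all RFPpos samples stayed below RFPneg1 (log2 fold change −3.10, SE 0.24, adjusted p = 1.0e-28). Ly6a (Sca-1), a membrane-anchored marker of mouse endothelium, was at 297, 771, 928, 1209 and 589 CPM in RFPneg and at 15.4, 7.08, 48.7, 63.2 and 43.2 CPM in RFPpos. Its log2 fold change was −4.45 (SE 0.27, adjusted p = 9.5e-43), again with the populations far apart. The related Ly6c1 had −5.46 (−6.07 without mouse 4). Ly6 genes resemble each other in sequence, so counts of Ly6a and Ly6c1 are uncertain as to which family member they came from.

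The sialomucin gene Emcn was at 38.5, 192, 80.1, 204 and 87.7 CPM in RFPneg and had no count in any RFPpos sample. Against the floor of 3 counts over the RFPpos samples it was at least 45.8-fold lower in summed counts per library size (adjusted p = 3.2e-19). Podxl, another sialomucin, and Itm2a, a membrane protein, had log2 fold changes of −5.12 and −5.14. RFPpos4 held most of their RFPpos counts, and without mouse 4 the values were −6.54 and −6.28. Car4, a membrane-bound carbonic anhydrase of capillaries, had −4.15, with RFPpos counts in mice 2 and 3 only (−4.99 without mouse 2 and −4.76 without mouse 3).

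The 7 secreted and matrix genes were all called lower without overlap (median log2 fold change −4.25). Spock2, a proteoglycan of the extracellular matrix, was at 429, 871, 898, 1648 and 843 CPM in RFPneg and at 46.1, 124, 164, 71.0 and 82.1 CPM in RFPpos. RFPneg1 was lowest of the RFPneg samples and RFPpos3 highest of the RFPpos samples, and the log2 fold change was −3.23 (SE 0.23, adjusted p = 2.1e-32). The chemokine gene Cxcl12 was at 226, 919, 735, 1249 and 404 CPM in RFPneg and at 5.12, 3.54, 13.3, 39.5 and 17.3 CPM in RFPpos. It fell in each mouse, with a log2 fold change of −5.49 (SE 0.31, adjusted p = 6.7e-48). The phospholipid transfer protein gene Pltp had −3.74, the matrix gene Vwa1 −3.09 and fibronectin (Fn1) −4.26 (−4.93 without mouse 4). Egfl7, a secreted factor of vessel walls, had −5.90 from 429 RFPneg and 5 RFPpos counts, 3 of them in mouse 2 (−6.92 without it). The von Willebrand factor gene Vwf had 77 and 3 counts, a 22.0-fold ratio (7.26 to 109, adjusted p = 5.1e-07). Its fitted log2 fold change of −4.25 became −3.65 without mouse 2 and −5.38 without mouse 3.

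Both efflux transporter genes were called lower. Abcb1a, which encodes the drug pump P-glycoprotein, was at 127, 383, 438, 638 and 320 CPM in RFPneg and at 5.12, 3.54, 35.4, 7.89 and 25.9 CPM in RFPpos. RFPpos stayed below RFPneg1 throughout, and the log2 fold change was −4.62 (SE 0.33, adjusted p = 2.4e-33). Abcg2, the breast cancer resistance protein pump, was at 66.0, 244, 264, 491 and 172 CPM in RFPneg and at 71.7, 77.9, 48.7, 103 and 51.8 CPM in RFPpos. The RFPpos samples ranged from 48.7 to 103 CPM, RFPneg1 lay within that range, and in mouse 1 the RFPpos value was slightly above the RFPneg value. The log2 fold change of Abcg2 was −1.71 (SE 0.27, adjusted p = 4.5e-08), lower in 4 of 5 mice.

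The genes of caveolae, the membrane pits coated by caveolins, and of the membrane skeleton were all 3 called lower, with a median log2 fold change of −1.74. Sptbn1, the spectrin beneath the membrane, was at 303, 670, 516, 886 and 564 CPM in RFPneg and at 56.4, 81.5, 79.7, 107 and 64.8 CPM in RFPpos. Its samples did not overlap and the log2 fold change was −2.89 (SE 0.24, adjusted p = 4.5e-26). Caveolin-1 (Cav1) was at 60.5, 196, 156, 156 and 122 CPM in RFPneg and at 15.4, 67.3, 102, 59.2 and 17.3 CPM in RFPpos. RFPpos was lower in each mouse, but RFPpos2 and RFPpos3 exceeded RFPneg1, and the log2 fold change was −1.48 (SE 0.32, adjusted p = 0.00010). Its partner Cav2 had −1.74 (SE 0.49, adjusted p = 0.0054), also with overlap, and the call was lost when all libraries were thinned to the depth of the smallest (adjusted p = 0.054).

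Of the 8 transcription factor genes 6 were called lower (median log2 fold change −4.14). Klf2, induced in endothelium by blood flow, was at 77.0, 292, 207, 339 and 222 CPM in RFPneg and at 0, 7.08, 44.3, 23.7 and 30.2 CPM in RFPpos. The populations were apart, with a log2 fold change of −3.45 (SE 0.34, adjusted p = 2.9e-19). Its relative Klf4 was at 60.5, 192, 179, 223 and 160 CPM in RFPneg and at 0, 7.08, 0, 11.8 and 0 CPM in RFPpos. Only mice 2 and 4 had RFPpos counts of Klf4, and the log2 fold change was −5.22 (SE 0.48, adjusted p = 1.8e-21; −5.93 without mouse 4). Erg, an ETS factor that maintains endothelial identity, was at 22.0, 124.5, 84.8, 51.9 and 56.4 CPM in RFPneg and had no RFPpos count. In counts summed over samples per library size, it was at least 27.8-fold lower against the floor (adjusted p = 1.7e-11). Sox17, a factor of arterial endothelium, had a log2 fold change of −4.73 (SE 0.54), with its 5 RFPpos counts in mouse 5, so that no RFPpos count remained without that mouse. Foxq1, a forkhead factor, had −5.13 (−6.58 without mouse 4).

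Of the other ETS and SOX factors, Ets2 was called lower, and Ets1 and Sox18 were not called. Ets1, which lymphocytes also express, was at 60.5, 95.8, 84.8, 79.8 and 37.6 CPM in RFPneg and at 51.2, 56.7, 22.1, 39.5 and 17.3 CPM in RFPpos. It was lower in each of the 5 mice but overlapped widely, and its log2 fold change of −0.98 (SE 0.40, adjusted p = 0.091) was not called. It passed with 3 of the other settings (adjusted p = 1.7e-06 to 0.043). Ets2 was at 44.0, 14.4, 61.3, 91.8 and 21.9 CPM in RFPneg and at 20.5, 24.8, 8.85, 3.95 and 12.96 CPM in RFPpos. RFPpos was higher in mouse 2 and lower in the other mice. Its log2 fold change of −1.56 (SE 0.57, adjusted p = 0.048) passed narrowly. With single mice left out it ranged from −2.19 (without mouse 2) to −0.98 (without mouse 4), the last inside the threshold of 1. The call was lost without mouse 1, 3 or 4 (adjusted p = 0.058, 0.27 and 0.44), by DESeq2 (0.20) and by limma-voom (0.059). It was also lost when every gene with at least 1 count was tested (0.055). Sox18 had 22 counts in RFPneg and 1 in RFPpos, a ratio of 18.9 (3.05 to 779), and was not called (adjusted p = 0.070), but passed with 5 of the other settings (adjusted p = 0.0020 to 0.0498). Its only RFPpos count was in mouse 4, and the log2 fold change was −3.54 with this mouse and −4.86 without it.

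The Wnt targets were the lowest counted of the roles. Lef1, itself a nuclear mediator of Wnt signalling, was at 27.5, 43.1, 61.3, 71.8 and 12.5 CPM in RFPneg and at 0, 14.2, 0, 0 and 0 CPM in RFPpos. Its 4 RFPpos counts lay in mouse 2, where RFPpos exceeded RFPneg5, and the log2 fold change was −3.75 (SE 0.79, adjusted p = 6.6e-05). Without mouse 2 no RFPpos count of Lef1 remained. Axin2, a feedback inhibitor that Wnt signals induce, was at 5.50, 43.1, 35.3, 19.9 and 37.6 CPM in RFPneg and at 0, 7.08, 8.85, 0 and 4.32 CPM in RFPpos. RFPpos was lower in each mouse, but RFPpos2 and RFPpos3 exceeded RFPneg1. The log2 fold change of −2.74 (SE 0.85, adjusted p = 0.015) missed the threshold without mouse 2, 3, 4 or 5 (adjusted p = 0.067, 0.051, 0.057 and 0.051) and by DESeq2 (adjusted p = 0.057). Apcdd1, an inhibitor of the pathway, had 1 count in RFPneg and 2 in RFPpos and was too low to test.

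The shares of the roles in the counts of the 46 genes differed between the populations, and single genes carried much of this. Junction genes made up 10.0% in RFPneg (SD 0.819, n = 5) and 17.4% in RFPpos (SD 2.64, n = 5), but Tjp1 held 94 of their 210 RFPpos counts. Without Tjp1 the junction share was 9.05% and 9.27%, higher in RFPpos in 2 of 5 mice. Efflux transporters made up 4.73% (SD 0.726) and 8.66% (SD 1.80), with Abcg2 holding 85 of the 103 RFPpos counts. Abcg2 alone went from 1.81% to 7.16% and Abcb1a alone from 2.92% to 1.497%, each in that direction in all 5 mice. Caveolar and membrane skeleton genes made up 6.47% (SD 0.962) and 14.2% (SD 4.12), higher in RFPpos in all 5 mice, also with any of the 3 genes left out. Receptors made up 23.9% (SD 1.53) and 15.5% (SD 2.26), lower in RFPpos in each mouse, and without Flt1 14.1% and 12.2%, lower in 4 of 5 mice. Surface proteins made up 23.4% (SD 1.66) and 15.5% (SD 6.54), lower in RFPpos in 4 of 5 mice, and without Bsg 17.0% and 6.32%, lower in all 5 mice. Secreted and matrix genes made up 23.9% (SD 2.09) and 19.3% (SD 6.01), higher in RFPpos in 1 of 5 mice. Without Spock2 their share was 16.4% and 9.79%, lower in all 5 mice. Wnt targets made up 0.583% (SD 0.101) and 0.844% (SD 0.905), higher in RFPpos in 3 of 5 mice. Transcription factors made up 6.99% (SD 0.718) and 8.64% (SD 1.77), higher in RFPpos in all 5 mice, but without Ets1 6.34% and 4.61%, lower in all 5 mice. The shares without single genes were computed after seeing the data. All of them rest on few RFPpos counts, 1246 over the 46 genes and 5 samples against 18152 in RFPneg, and differences between roles were not tested. In all, 23 genes had a fitted log2 fold change below −4, and 7 (Eng, Tjp1, Abcg2, Cav1, Cav2, Ets1 and Ets2) lay above −2. Each of these 7 kept counts in at least 4 RFPpos samples.

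**Figure D4:**
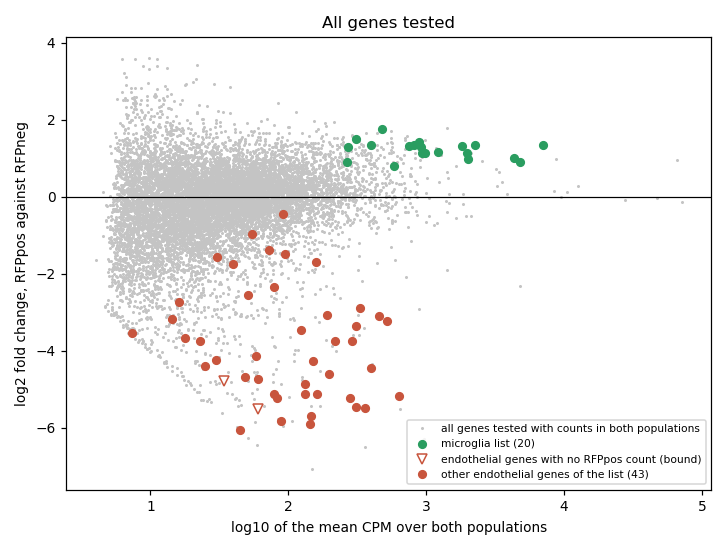
Log2 fold change against the log10 of the mean CPM over both populations for genes tested that had counts in both (grey), for the endothelial genes (red) and for the microglia list (green). Open triangles show Emcn and Erg, without RFPpos counts, at their bound. The red points lie below 0, between −0.46 (Tjp1) and −6.06 (Tek), whereas the 20 microglia genes lie above 0.

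A second list of 50 endothelial genes, none of them among the 46, was less uniform. Of 47 tested, 30 were called lower and 1 higher (7.42% and 3.39% of all genes), and the median log2 fold change was −2.92. Sparc, a matrix protein gene that microglia also express, had the most counts, at 2129, 1561, 1571, 1823 and 1679 CPM in RFPneg and 3853, 3389, 3550, 2996 and 2980 CPM in RFPpos. All its RFPpos samples were above all RFPneg samples, but the log2 fold change of 0.94 (SE 0.18, adjusted p = 8.4e-06) stayed inside the threshold of 1, and it was −0.23 when libraries were scaled to the microglia genes. F11r, the junctional adhesion molecule of epithelia, leukocytes and platelets as well as endothelium, was at 770, 464, 445, 555 and 517 CPM in RFPneg and 1394, 1009, 1337, 809 and 963 CPM in RFPpos. Its log2 fold change of 1.00 (SE 0.19, adjusted p = 1.0e-05) was the only one of the list called higher, the call was lost in 10 of 16 other settings, without mouse 2 (0.94) and without mouse 3 (0.82) among them, and in 1 of these 10, scaling to the microglia genes, the value was −0.16. The organic anion transporter gene Slco1a4 of the barrier was at 209, 646, 782, 1249 and 680 CPM in RFPneg and 5.12, 3.54, 4.43, 15.8 and 8.64 CPM in RFPpos, a log2 fold change of −6.51 (SE 0.34, adjusted p = 1.2e-53). Nrp1, a VEGF and semaphorin co-receptor, was at 374, 374, 412, 387 and 370 CPM in RFPneg and 354, 329, 310, 363 and 350 CPM in RFPpos. Its RFPpos samples all lay below its RFPneg samples, by a small margin. It was not called (log2 fold change −0.17, SE 0.21, adjusted p = 0.72), and was called lower only with scaling to the microglia genes (−1.34).

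Among 14 ligands that act on endothelium, 10 were tested, 3 were called lower by edgeR and 1 by DESeq2 (median log2 fold change −1.73). None was called higher by edgeR, limma-voom or DESeq2, and 0 were higher at an unadjusted p under 0.05. Vegfa, the main ligand of Kdr, was at 11, 115, 132, 59.9 and 116 CPM in RFPneg and 5.12, 17.7, 31.0, 19.7 and 47.5 CPM in RFPpos, lower in each mouse (log2 fold change −1.83, SE 0.42, adjusted p = 0.00039). Vegfb, a ligand of Flt1, was at 44.0, 33.5, 49.5, 39.9 and 21.9 CPM in RFPneg and 56.4, 74.4, 53.1, 67.1 and 60.5 CPM in RFPpos. Its RFPpos samples all lay above its RFPneg samples. Vegfb was not called (log2 fold change 0.73, SE 0.41, adjusted p = 0.28), and its value was −0.43 with scaling to the microglia genes. The 5 genes outside the 46 whose log2 CPM followed that of Cldn5 most closely over the 10 samples, among 4330 genes with at least 100 counts, were Slc2a1 (the glucose transporter of the barrier), Cd93, Slc16a1 (a lactate transporter), Tpm4 and Crip2, with Pearson r from 0.97 to 0.99. The 2 populations set these correlations, and they serve as a description only.

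Genes of other cell types differed between the populations too, and their part in the endothelial differences was not tested. The 20 microglia genes summed to 2.68, 1.81, 1.91, 1.71 and 2.50% of counts in RFPneg1 to RFPneg5 and to 4.94, 4.31, 4.53, 4.38 and 3.74% in RFPpos1 to RFPpos5. Of these 20 genes, 16 were called higher, each had RFPpos counts, and Ctss had the most. In RFPneg1, where the endothelial sum was lowest, the sums of microglia, oligodendrocyte and choroid plexus genes were the highest of the RFPneg samples (2.68, 0.326 and 0.522%). The choroid plexus sum was nearly all Ttr, with 2551 of the 2640 RFPneg counts of that list. The 9 tested pericyte and smooth muscle genes were all called lower, from 0.0587, 0.0617, 0.0269, 0.0596 and 0.0444% in RFPneg to 0.00135, 0.00587, 0.00852, 0.0116 and 0.00824% in RFPpos, with 6 of 12 listed genes at 0 in RFPpos, Kcnj8, Abcc9 and Cspg4 among them. Vtn had the most counts of that list, and DESeq2 called 5 of its genes. The 10 oligodendrocyte genes were also all called lower (mean sum 0.180% in RFPneg and 0.0140% in RFPpos). Of 9 monocyte and neutrophil genes tested 8 were called lower (0.468% and 0.0511%), as were all 4 red cell genes tested (0.117% and 0.00562%).

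**Figure D5:**
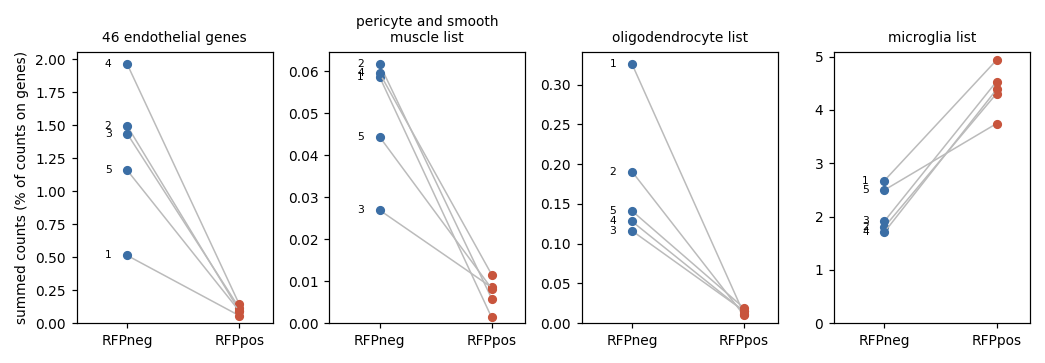
Summed counts of the 46 endothelial genes and of lists of pericyte and smooth muscle, oligodendrocyte and microglia genes, in percent of counts on genes, for the RFPneg (blue) and RFPpos (red) sample of each mouse (numbered at the RFPneg point). The first 3 sums are lower and the microglia sum is higher in RFPpos in each of the 5 mice.

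The remaining lists showed smaller or sparser differences. Of the 10 astrocyte genes 1 was called lower by edgeR and 0 by limma-voom and DESeq2, with 4 lower at an unadjusted p under 0.05. Their mean sum was 0.465% in RFPneg and 0.398% in RFPpos, with RFPpos1 at 0.0926%. The sum was lower in RFPpos in only 2 of 5 mice and higher in mice 3, 4 and 5. Among fibroblast genes 4 of 5 tested were called lower (3 by limma-voom and 2 by DESeq2), among neuronal genes 3 of 8 (4 and 2), and 1 by each of these tools among 4 choroid plexus and ependymal genes and among 3 lymphocyte genes. Of the 7 genes of CNS-associated macrophages tested, 0 were called by edgeR, limma-voom or DESeq2, and 2 were lower at an unadjusted p under 0.05. The 1 platelet gene tested was not called by any of these tools and did not pass the unadjusted threshold.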

How the data were processed

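The authors sequenced 3′ messenger RNA libraries (Lexogen QuantSeq FWD) of RFPneg and RFPpos cells and processed them with a QuantSeq pipeline for unique molecular identifiers. They deposited raw counts per gene, with no normalization. The aligner and annotation of the bulk counts were not given in the sources used here, and the submitters' notes name mm10. Rows for reads on no gene (32.05 to 37.21% in RFPneg and 38.4 to 48.64% in RFPpos) and ambiguous reads (0.295 to 0.436%) were left out. Of 47643 gene identifiers 47224 matched a symbol in GENCODE.

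Genes with at least 15 counts over the 10 samples were tested in edgeR 4.0.16 (R 4.3.3) with TMM scaling and mouse as a block, as the quasi-likelihood F test. limma 3.58.1, DESeq2 1.42.0, other scalings, filters and thinned counts, and each mouse left out, were the alternatives. On simulated counts for 11103 genes, the test called 66 of 100 genes changed by a log2 of 2, 90 of 100 changed by 4, and 1 of 10903 unchanged genes. The simulated counts came from the kind of model the test assumes, with no mouse effect and as many genes raised as lowered. These rates therefore need not hold for the real counts. Samples were paired by number because the study states that both populations came from the same mice. The sample titles give only the population and a number, so it was assumed that equal numbers mark the same mouse. Ages match within each number, but samples 3, 4 and 5 share an age of 116 weeks. The correlations of deviations from the population means within mice 1 to 5 were 0.113, −0.002, 0.055, 0.004 and 0.014.

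The members and lists were chosen with earlier results of these data known. Values in every sample were given by rule for the 2 members of each role with the most counts, for the 4 and 2 most counted genes of the other endothelial and ligand lists, and for any gene of them called higher. Eng, Tjp1, Emcn, Erg, Ets1 and Ets2 were added after their values were seen. Exons of 2 members (Ramp2 and Egfl7) overlap another gene on the same strand and those of 11 on the other strand, so their counts are uncertain where the counting could split reads. Intervals and floors cover counting error only.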

Additional observations from a re-analysis of the deposited data

Results flagged for a closer look

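Within a population, a sample was marked when its gap to the nearest other sample exceeded 0.71 of the range of the 5 samples (Dixon's critical value at 95%). This held for 10 of 94 groups of 5. Chance marks about 1 in 20 groups of continuous values, a rate that cannot be read against sparse counts: in 5 of the 10 every other sample was at 0, where any count exceeds the limit. RFPpos4 was high for Ptprb (35.5 CPM), Podxl (27.6 CPM), Itm2a (31.6 CPM), Sox18 (3.95 CPM) and Foxq1 (15.8 CPM). RFPpos4 was also the RFPpos sample with the largest sum of the 46 genes (0.144% of counts). Of the other RFPpos samples, RFPpos1 was high for Tek (5.12 CPM), RFPpos2 for Lef1 (14.2 CPM) and RFPpos5 for Sox17 (21.6 CPM), with the other RFPpos samples at 0 for each of these 3 genes. RFPneg4 held the only RFPneg count of Apcdd1 (3.99 CPM). The values for Tek, Sox18 and Apcdd1 were single counts. RFPneg1 was low for Sox17 (27.5 CPM, against 128 to 151 CPM in the other RFPneg samples). The cause was not tested for any of them.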

How the results depend on the processing

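Over 16 alternative settings, 680 of 703 values of single members kept their direction and their side of the threshold, 14 fell short of it (Ocln, Cav2, Ets2 and Axin2), 9 passed it only there (Tjp1, Sox18 and Ets1) and 0 reversed. With no replicate block, that is without pairing by mouse, 43 members were called lower and the median log2 fold change was −4.09. The pairing changed no other call of a member than that of Sox18 (adjusted p = 0.029 without it). Leaving out each mouse gave 39 to 41 members called lower, 0 called higher, and medians from −4.17 to −3.71. DESeq2 called 40 lower and limma-voom 42, each with 0 higher. Only 30 members passed the stricter filter of edgeR, of which 29 were called lower. The size of adjusted p depended on the setting. For Flt1 it ran from 7.5e-82 with every gene of at least 1 count tested to 4.0e-10 with the stricter filter. For Ly6a it was 2.1e-56 and 2.5e-09 in the same settings. Scaling to the microglia genes moved the median of all genes by −1.14 and that of the members to −5.30 (−4.06 relative to all genes), with 45 called lower, where 4940 of all 11103 genes were called lower and 8 higher. It turned the signs of Sparc (−0.23), F11r (−0.16) and Vegfb (−0.43). With reads on no gene in the total, the members summed to 0.850% in RFPneg and 0.0588% in RFPpos, since the larger total lowers both shares. In 20 members, leaving out a single mouse moved the fitted fold by more than 1.5 times. Depth limits the genes with few RFPpos counts, whose fitted folds depend on single counts.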
